A study of Mus musculus with 18 samples.

Results

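The response of sorted heart cells of 1 mouse strain, C3H/HeJ, to isoproterenol (ISO) is described here, with days 14 and 21 of treatment pooled and set against sham. The members were taken by strain and treatment labels alone and are 6 of the 18 libraries of the series. They comprise 2 libraries of C3H/HeJ ISO at day 14, 2 of C3H/HeJ ISO at day 21 and 2 of C3H/HeJ sham. ISO and saline were delivered to the living animals by implanted pumps, and sham cells came from saline hearts. The sham labels carry no day, so the same 2 sham libraries served both days. The other libraries hold the same 3 conditions in C57BL/6 and KK/HlJ mice, and the title of the series puts genetic background at the centre of the question. The labels name no transgene or knockout. C3H/HeJ is an inbred strain known for a defective Tlr4, the receptor for bacterial endotoxin, a trait its ISO and sham groups share.

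All libraries were made from Thy1+ cells of the heart, a sorted population that the labels also write as Thy1+ HE or Thy1+HE- without spelling out HE. Thy1 is a surface protein used to collect cardiac fibroblasts. The labels give 2 per strain and condition and do not tell separate animals from pools. The p-values below therefore cover the spread between libraries only, and that spread may be technical. In bulk libraries of this kind, fewer cells of a type and less RNA per cell cannot be told apart.

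Cardiac fibroblasts make and turn over the collagen-rich matrix that holds heart muscle cells together. Isoproterenol stimulates beta-adrenergic receptors, which raise cyclic AMP in the cell, and sustained infusion makes the heart enlarge and scar. In scarring hearts, fibroblasts turn on matricellular proteins such as periostin, which sit in the matrix and change how cells attach to it, along with fibrillar collagens and the enzymes that crosslink them.

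Total counts in C3H/HeJ were 26280685 and 10469589 at ISO day 14, 11387682 and 21523501 at ISO day 21, and 12700814 and 19379717 in sham. Levels below are CPM, read counts scaled to a common library size, after TMM scaling, a correction for differences in library composition. In CPM of total counts, 1 read was worth 0.0381 to 0.0955. Summed levels of cell type markers are the exception and are CPM of total counts, without TMM scaling. Sham replicate 1 had the lowest correlations over genes in log2 CPM, at r = 0.827 to 0.886 with the 4 ISO libraries and 0.853 with sham replicate 2, while sham replicate 2 correlated at 0.908 to 0.924 with the ISO libraries. Sham replicate 1 also had a median r of 0.840 with the other libraries of the series. Most list medians below are therefore given with their range as single libraries were left out, and the library at each end is named.

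The sorted population carried its label. Thy1 itself was measured at 392 and 299 CPM at ISO day 14 and 264 and 289.9 CPM at ISO day 21, against 357 and 481 CPM in sham. The 30 resting fibroblast markers were summed in each library in CPM of total counts, without TMM scaling. They came to 105714 to 125870 CPM in ISO libraries and 126319 to 142587 CPM in sham libraries. The TMM factor was 0.964 in ISO day 21 replicate 1 (125870 CPM) and 1.002 in sham replicate 1 (126319 CPM). The gap between these 2 libraries is smaller than that between their factors, so the ranges are not read as apart. Tcf21, a transcription factor of resident cardiac fibroblasts, had 333 and 275 CPM at ISO day 14 and 298 and 372 CPM at ISO day 21, against 304 and 391 CPM in sham. Pdgfra, the growth factor receptor that marks fibroblasts, had 534 to 1034 CPM in ISO libraries and 343 and 567 CPM in sham. The log2 fold changes of ISO over sham in these 3 genes were -0.44, -0.12 and 0.61, and 0.08, 0.02 and -0.09 with offsets for transcript length and GC content, which are described next. Markers of other cell types were far lower in sum, and 10 of 16 lymphocyte markers had no read in any C3H/HeJ library.

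Transcript length moved with the groups in C3H/HeJ, which bears on every comparison of long and short genes below. The mean log2(CPM + 0.5) of the longest quintile of genes exceeded that of the shortest quintile by 1.32 and 1.57 at ISO day 14 and by 1.48 and 1.98 at ISO day 21, against 0.66 and 1.05 in sham. The 4 ISO libraries lay above both sham libraries in this measure. From the shortest to the longest quintile, the median log2 fold change of ISO over sham was -0.34, -0.11, 0.03, 0.17 and 0.51 in C3H/HeJ. Offsets that smooth out length and GC content in each library brought those medians to 0.10, 0.09, 0.07, 0.03 and 0.02. In C57BL/6 the longest quintile had a median of -0.13 and in KK/HlJ of 0.26. The part of length in each result was not tested apart from these offsets, and log2 fold changes with them ("with the offsets") are given beside the genes and list medians that they moved by over 1.5 times.

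**Figure D1:**
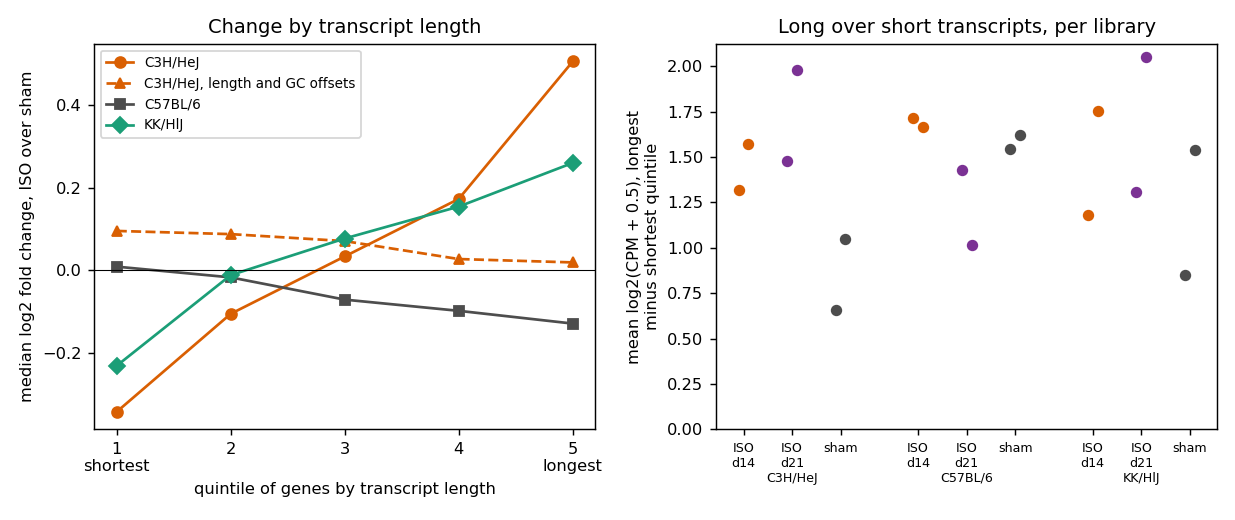
Left, median log2 fold change of ISO (mean of days) over sham in quintiles of genes by transcript length, for C3H/HeJ with and without length and GC offsets, C57BL/6 and KK/HlJ. Right, each dot is 1 library, showing mean log2(CPM + 0.5) of the longest quintile minus that of the shortest; C3H/HeJ ISO libraries span 1.32 to 1.98 and the sham libraries are at 0.66 and 1.05.

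The main comparison asked which genes differed between C3H/HeJ cells of ISO hearts, averaged over both days, and sham. One gene passed, Postn, which rose, and none was lower. That is 1 of 15762 genes tested (0.00634% called higher and 0% lower, edgeR quasi-likelihood test, Benjamini-Hochberg adjusted p under 0.05). At an unadjusted p under 0.05 there were 538 genes higher and 487 lower. DESeq2, started from 26191 genes with no filter on low counts beforehand, called 85 higher and 24 lower. The count turned on the sham libraries: it was 0 without sham replicate 1 and 198 without sham replicate 2, of which 182 were higher. Without ISO day 14 replicate 2, or without ISO day 21 replicate 2, it was also 0.

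Postn encodes periostin, the matricellular protein widely used as a marker of activated fibroblasts. The gene (ENSMUSG00000027750) lies on chromosome 3 from 54361109 to 54391037 of mm10, plus strand. Postn had 2017 and 2373 CPM at ISO day 14 and 1256 and 1659 CPM at ISO day 21, against 372 and 237 CPM in sham. All 4 ISO libraries lay above both sham libraries, and both day 14 libraries above both day 21 libraries. The ISO libraries averaged 1826 ± 479 CPM (SD, n = 4) and the sham libraries 304 ± 95.98 CPM (SD, n = 2). The log2 fold change was 2.55 ± 0.38 (SE; edgeR adjusted p = 0.0145). Over the 15 alternative settings it ran from 2.25 to 2.93, and 5 of them took the adjusted p past 0.05: length and GC offsets (0.0634), a minimum mean of 5 CPM (0.152), and the fits without sham replicate 1 (0.180), ISO day 14 replicate 2 (0.0560) or ISO day 21 replicate 2 (0.0706).

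The promoter of the 1 gene called is shown from RefSeq on GRCm38.p6 (chr3:54360857-54361156, plus strand, 250 bases before the start to 50 after), with the capitals marking the letters TATAAA, whose first base is at -26 from the start. These letters, searched on both strands, occur in 13.6% of 32851 promoter windows of the same length. The motif was chosen after the values were seen.
Postn: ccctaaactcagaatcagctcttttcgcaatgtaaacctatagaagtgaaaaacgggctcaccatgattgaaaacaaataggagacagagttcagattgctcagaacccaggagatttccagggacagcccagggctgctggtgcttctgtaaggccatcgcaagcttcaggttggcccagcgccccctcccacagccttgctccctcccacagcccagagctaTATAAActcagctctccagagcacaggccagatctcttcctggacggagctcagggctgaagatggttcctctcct

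Beyond Postn, 9 genes that stood highest by p and 10 that stood lowest are described by level, since none of them passed in the pooled comparison. They were taken only from genes whose ISO libraries all lay above, or all lay below, both sham libraries. That separation was therefore set by the choice of genes and is no finding of its own. Serpina3n encodes a secreted inhibitor of serine proteases made in acute-phase and injury responses. It had 345 and 607 CPM at ISO day 14 and 291 and 239 CPM at ISO day 21, against 76.1 and 110.0 CPM in sham. Every ISO library was above both sham libraries, and the highest was day 14 replicate 2. The pooled log2 fold change was 1.93 ± 0.35 (SE; edgeR adjusted p = 0.102), and with length and GC offsets it was 2.16 (edgeR adjusted p = 0.0296).

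Timp3 encodes a matrix-bound inhibitor of metalloproteinases. Its level was 992 and 1387 CPM at ISO day 14 and 1224 and 1342 CPM at ISO day 21, against 454 and 366 CPM in sham. The ISO libraries were about as high at either day and did not overlap the sham libraries. The log2 fold change was 1.59 ± 0.30 (SE; edgeR adjusted p = 0.102), and 1.07 with the offsets. Hsph1, a large heat shock protein that works with Hsp70 as a nucleotide exchange factor, had 126 and 94.6 CPM at ISO day 14 and 76.7 and 55.9 CPM at ISO day 21, against 9.27 and 14.4 CPM in sham. By the choice of genes, no ISO library of Hsph1 overlapped sham, and its log2 fold change was 2.85 ± 0.52 (SE; edgeR adjusted p = 0.102).

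Ltbp2, a latent TGF-beta binding protein of elastic fibres, had 218 and 385 CPM at ISO day 14 and 379 and 225 CPM at ISO day 21, against 58.9 and 121 CPM in sham, and its log2 fold change was 1.75 ± 0.36 (edgeR adjusted p = 0.219). Il33, an alarmin cytokine held in the nucleus of stromal cells, had 149 and 299 CPM at ISO day 14 and 220.1 and 114 CPM at ISO day 21, against 65.8 and 35.9 CPM in sham, a log2 fold change of 1.93 ± 0.43. By that choice, the lowest ISO library of each was above the higher sham library. Sfrp2, a secreted modulator of Wnt signalling, had 74.7 and 108 CPM at ISO day 14 and 99.4 and 77.1 CPM at ISO day 21, against 17.8 and 27.4 CPM in sham, a log2 fold change of 1.99 ± 0.45. Sulf1, an extracellular enzyme that trims sulfate from heparan sulfate, had 475 to 646 CPM in ISO libraries and 177 and 254 CPM in sham. Its sham libraries were both under every ISO library, and its log2 fold change of 1.38 was 0.78 with the offsets. Ahnak, a giant scaffold protein with a very long transcript, had 852 to 1315 CPM in ISO libraries and 335 and 395 CPM in sham. Its log2 fold change of 1.54 ± 0.32 was 0.55 with the offsets. Fchsd2, an F-BAR protein of the cell membrane and actin, had 20.8 and 27.6 CPM at ISO day 14 and 32.3 and 31.2 CPM at ISO day 21, against 2.04 and 4.80 CPM in sham, with 26 and 84 reads behind the sham values. Its log2 fold change was 3.01 ± 0.66 (edgeR adjusted p = 0.284).

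On the lower side, Vtn, which encodes vitronectin, an adhesive glycoprotein abundant in pericytes, had 92.5 and 147 CPM at ISO day 14 and 118 and 133 CPM at ISO day 21, against 274 and 574 CPM in sham. Cox4i2, a cytochrome oxidase subunit isoform found in pericytes and lung, had 41.4 and 47.6 CPM at ISO day 14 and 24.2 and 23.7 CPM at ISO day 21, against 88.4 and 126 CPM in sham. By the same choice, these genes were lower in every ISO library than in either sham library. The log2 fold changes were -1.79 ± 0.43 for Vtn and -1.72 ± 0.41 for Cox4i2. Vwa1, an extracellular matrix protein, had 275 and 201 CPM at ISO day 14 and 281 and 235 CPM at ISO day 21, against 549 and 526 CPM in sham. Ppp1r14a, an inhibitor of myosin phosphatase in smooth muscle, had 37.6 to 72.8 CPM in ISO libraries and 186 and 118 CPM in sham. In both genes the sham libraries were clear of every ISO library, again by the choice of genes. Sept4, a septin, had 48.8 to 62.9 CPM in ISO libraries and 139.7 and 138 CPM in sham. Itga7, the laminin-binding integrin subunit of muscle cells, had 74.1 to 121 CPM in ISO libraries and 173 and 327 CPM in sham. Sept4 had nearly equal sham libraries, while those of Itga7 differed. The other 4 were Fndc4, Scly, Gstm1 and Ifitm3, with log2 fold changes of -1.40, -1.61, -0.93 and -1.06. Gstm1 and Ifitm3 have close relatives in the genome, so their counts are uncertain. For these 10 genes edgeR adjusted p ran from 0.284 to 0.416. The offsets brought Ifitm3 to -0.43, Gstm1 to -0.43, Cox4i2 to -0.90 and Ppp1r14a to -0.71.

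**Figure D2:**
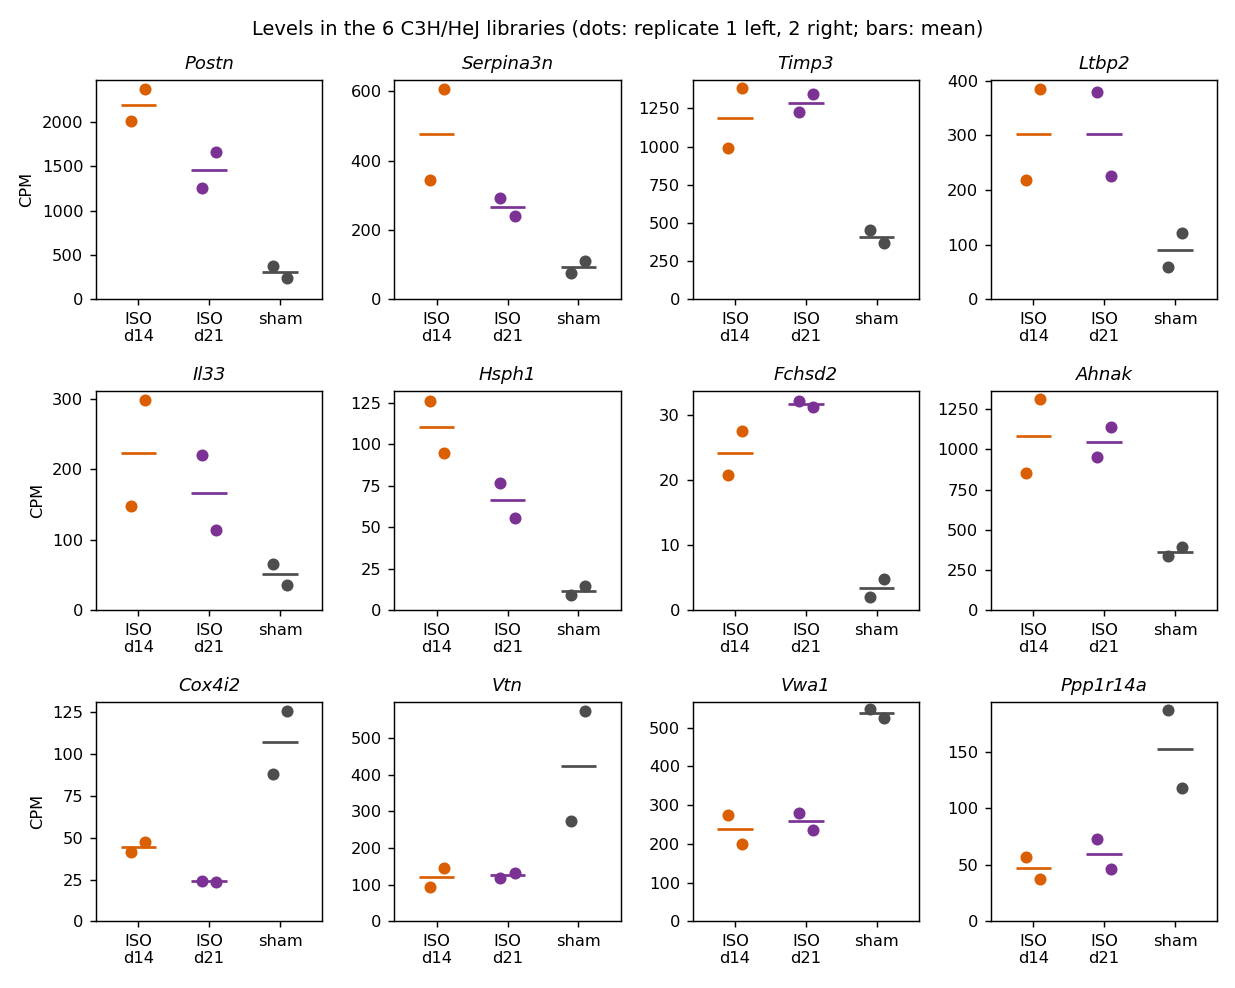
Levels (CPM) of 12 genes in the 6 C3H/HeJ libraries, with ISO day 14, ISO day 21 and sham from left to right; each dot is 1 library and each bar the group mean. Postn libraries at ISO lie between 1256 and 2373 CPM against 237 and 372 CPM in sham, and Vtn libraries at ISO between 92.5 and 147 CPM against 274 and 574 CPM in sham.

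Since few genes passed, each gene list is described by how many tested members had all 4 ISO libraries on 1 side of both sham libraries, beside the same for all genes. Over all 15762 genes, 1638 had every ISO library above both sham libraries (10.4%) and 1525 below (9.68%). These shares moved with transcript length. In the shortest quintile 3.20% were above and 16.5% below, and in the longest 20.1% were above and 2.95% below. Lists of short or long genes are to be read beside these shares. The median log2 fold change of all genes was 0.05, and 0.32 without sham replicate 2. Among the activated fibroblast and matricellular genes, 16 of 35 tested were above and 0 below, and their median log2 fold change was 0.64, with 0.87 at day 14, 0.45 at day 21 and 0.73 under the offsets. As single libraries were left out, that median ran from 0.61 without ISO day 14 replicate 1 to 0.94 without sham replicate 2. The medians in this list were 0.79 in C57BL/6 and 0.90 in KK/HlJ.

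Postn was the 1 member that passed. Ccn5, a matricellular protein of the CCN family, had 254 and 374 CPM at ISO day 14 and 509 and 166 CPM at ISO day 21, against 73.3 and 85.5 CPM in sham, a log2 fold change of 2.04 ± 0.51 (edgeR adjusted p = 0.383, and 0.0237 with the offsets). Day 21 held both its highest and its lowest ISO library. Ccn2, the connective tissue growth factor, had 1339.6 and 777 CPM at ISO day 14 and 719 and 749.9 CPM at ISO day 21, against 202 and 330.2 CPM in sham. Day 14 replicate 1 stood well above the other 3 ISO libraries, which were themselves above sham. Dkk3, a secreted glycoprotein of the dickkopf family, had 233 and 344 CPM at ISO day 14 and 304 and 265 CPM at ISO day 21, against 107 and 107 CPM in sham, and its log2 fold change was 1.42 ± 0.34. Comp, a protein of the thrombospondin family, had 176 to 395 CPM in ISO libraries and 103 and 154 CPM in sham. Thbs4, thrombospondin 4, had 27.2 to 46.6 CPM in ISO libraries and 0 and 16.7 CPM in sham. The groups of these genes did not overlap, and Thbs4 had no read in sham replicate 1. Fn1, which encodes fibronectin, had 1088 to 1939 CPM in ISO libraries and 295 and 907 CPM in sham. Tnc, which encodes tenascin C, had 31.2 to 56.7 CPM in ISO libraries and 9.82 and 28.1 CPM in sham. Sham replicate 1 was well below sham replicate 2 in both. Cilp, a matrix protein of cartilage and fibrotic hearts, had 316 to 432 CPM in ISO libraries and 149 and 225 CPM in sham. Sparc, a collagen-binding matricellular protein, had 7126 to 10836 CPM in ISO libraries and 5391 and 5665 CPM in sham. Cthrc1, a secreted protein of activated fibroblasts, had 4.08 to 31.8 CPM in ISO libraries and 1.89 and 2.11 CPM in sham. Of these 3 genes Cthrc1 varied most among the ISO libraries for its level, and each was above both sham libraries in every one of them. The other members above were Itgbl1, Lox, Ltbp2, Mfap4 and Pamr1.

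Among collagens, 10 of 26 were above and 3 below (Col26a1, Col5a3 and Col6a2), and none passed. The list's median log2 fold change was 0.87, with 0.96 at day 14, 0.45 at day 21 and 0.45 under the offsets, and it ran from 0.48 without sham replicate 1 to 1.01 without sham replicate 2. Its members had a median transcript length of 6453.5 nt, against 3194.5 nt over all genes. In the longest quintile of all genes 20.1% were above. Col3a1, the type III fibrillar collagen chain, had 10936 and 18716 CPM at ISO day 14 and 10321 and 12396 CPM at ISO day 21, against 3750.5 and 7594 CPM in sham. Col1a2, a type I chain, had 7275 and 8422 CPM at ISO day 14 and 5535 and 6135 CPM at ISO day 21, against 4080.1 and 3442 CPM in sham. Both had every ISO library above sham. Col1a1, the other type I chain, had 8544 and 9360.4 CPM at ISO day 14 and 6346 and 6258 CPM at ISO day 21, against 3796 and 6739 CPM in sham, and its groups overlapped because sham replicate 2 exceeded both day 21 libraries. Col14a1, a fibril-associated collagen, had 1746 to 2136 CPM in ISO libraries and 565 and 985 CPM in sham, a log2 fold change of 1.33 ± 0.34, and 0.77 with the offsets. Col5a2, Col12a1 and Col16a1 had log2 fold changes of 1.06, 1.53 and 0.90, and 0.47, 0.71 and 0.97 with the offsets.

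Of the enzymes that crosslink and process collagen, 6 of 26 were above and 1 below, with a median of -0.067, with 0.095 at day 14, -0.20 at day 21 and 0.11 under the offsets. It ran from -0.15 without sham replicate 1 to 0.13 without sham replicate 2, and was also positive under voom. Plod2, a lysyl hydroxylase, had 85.5 and 69.4 CPM at ISO day 14 and 31.9 and 54.8 CPM at ISO day 21, against 21.8 and 6.51 CPM in sham. Lox, the lysyl oxidase, had 29.5 to 59.4 CPM in ISO libraries and 21.5 and 10.6 CPM in sham. Neither gene's groups overlapped, and sham replicate 2 was the lowest library of both. Pcolce2, an enhancer of procollagen C-proteinase, had 813 to 1138 CPM in ISO libraries and 695 and 617 CPM in sham, and its log2 fold change of 0.58 was 0.14 with the offsets. Tll1, a procollagen C-proteinase, was near 0 in every ISO library and had 8.09 CPM in sham replicate 1 and none in sham replicate 2. Proteoglycans had 1 of 24 members above, 0 below and a median of 0.032, with 0.13 at day 14, -0.038 at day 21 and 0.096 under the offsets. It ran from -0.099 without ISO day 21 replicate 2 to 0.37 without sham replicate 1. The member above sham was Prg4, lubricin, at 88.3 and 144 CPM at ISO day 14 and 90.3 and 110.1 CPM at ISO day 21, against 18.3 and 43.2 CPM in sham, a log2 fold change of 1.81 ± 0.43. Gpc6, a glypican, overlapped between groups at 52.6 to 135 CPM in ISO libraries and 27.4 and 58.6 CPM in sham. Gpc4, another glypican, had 22.7 to 73.99 CPM in ISO libraries and 8.25 and 44.4 CPM in sham. Hspg2, perlecan, had 2041 to 2615 CPM in ISO libraries and 2017 and 4704 CPM in sham. Both overlapped, and the sign of each turned when 1 sham library was left out. The log2 fold change of Hspg2 was -0.52, and -0.80 with the offsets.

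Elastic fibre genes had 4 of 20 above and 1 below (Emilin1, at 398 to 496 CPM in ISO libraries and 674 and 668 CPM in sham), and a median of 0.14, with 0.29 at day 14, 0.17 at day 21 and 0.19 under the offsets. It ran from -0.026 without sham replicate 1 to 0.49 without sham replicate 2. Emilin1 had a log2 fold change of -0.59, and -0.39 with the offsets. Mfap3, a microfibril-associated protein, had 25.8 to 41.4 CPM in ISO libraries and 3.62 and 17.6 CPM in sham. Metalloproteinases and their inhibitors had 3 of 21 above, which were Timp3, Timp2 and Adamts1, and 2 below, Mmp11 and Mmp28. Timp2, an inhibitor, had 3153 to 3420.5 CPM in ISO libraries and 1958 and 3063 CPM in sham. Adamts1, a secreted protease, had 197 to 313 CPM in ISO libraries and 191 and 127 CPM in sham. The margin of both over the higher sham library was small. Mmp28, a metalloproteinase, had 4.60 to 9.97 CPM in ISO libraries and 27.04 and 13.3 CPM in sham. Mmp11, stromelysin 3, had 27.1 to 52.5 CPM in ISO libraries and 61.9 and 65.3 CPM in sham. With the offsets the log2 fold changes of Adamts1 and Mmp11 were 0.10 and -0.26, against 0.61 and -0.71 without them. Mmp19 had 58.6 to 73.5 CPM in ISO libraries and 29.2 and 60.4 CPM in sham, so its lowest ISO library was under sham replicate 2.

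Among TGF-beta pathway genes 5 of 24 were above (Ccn2, Smad6, Tgfb2, Tgfb3 and Tgfbr3) and 0 below, and the median was 0.47, with 0.41 at day 14, 0.62 at day 21 and 0.28 under the offsets. It ran from 0.25 without sham replicate 1 to 0.94 without sham replicate 2. Of the ligands, Tgfb3 had 266 to 323 CPM in ISO libraries and 120.5 and 239.7 CPM in sham and Tgfb2 had 23.7 to 69.9 CPM in ISO libraries and 23.1 and 19.6 CPM in sham. Both ligands were above sham in every ISO library, by a small margin over the higher sham library in each, and the log2 fold change of Tgfb2 was 1.05, or 0.44 with the offsets. Tgfbr3, the co-receptor betaglycan, had 116 to 150.1 CPM in ISO libraries and 59.6 and 93.7 CPM in sham, a log2 fold change of 0.80 ± 0.31 that was 0.21 with the offsets. The Wnt list had 9 of 35 above, most of them secreted modulators, and 2 below (Sfrp5 and Wnt4), with a median of 0.69, with 0.39 at day 14, 0.70 at day 21 and 0.44 under the offsets. It ran from 0.51 without sham replicate 1 to 0.82 without sham replicate 2. Sfrp1, a secreted modulator of Wnt ligands, had 286 and 410.4 CPM at ISO day 14 and 267 and 363 CPM at ISO day 21, against 139.7 and 146 CPM in sham, a log2 fold change of 1.22 ± 0.30 (edgeR adjusted p = 0.311). Frzb, a related modulator, had 244 to 352 CPM in ISO libraries and 86.8 and 202 CPM in sham. Sfrp4 had 29.6 to 36.1 CPM in ISO libraries and 2.12 and 19.4 CPM in sham. Nkd2, an inhibitor of the pathway inside the cell, had 85.4 to 114 CPM in ISO libraries and 34.7 and 63.1 CPM in sham. Each had its lowest ISO library above its higher sham library.

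**Figure D3:**
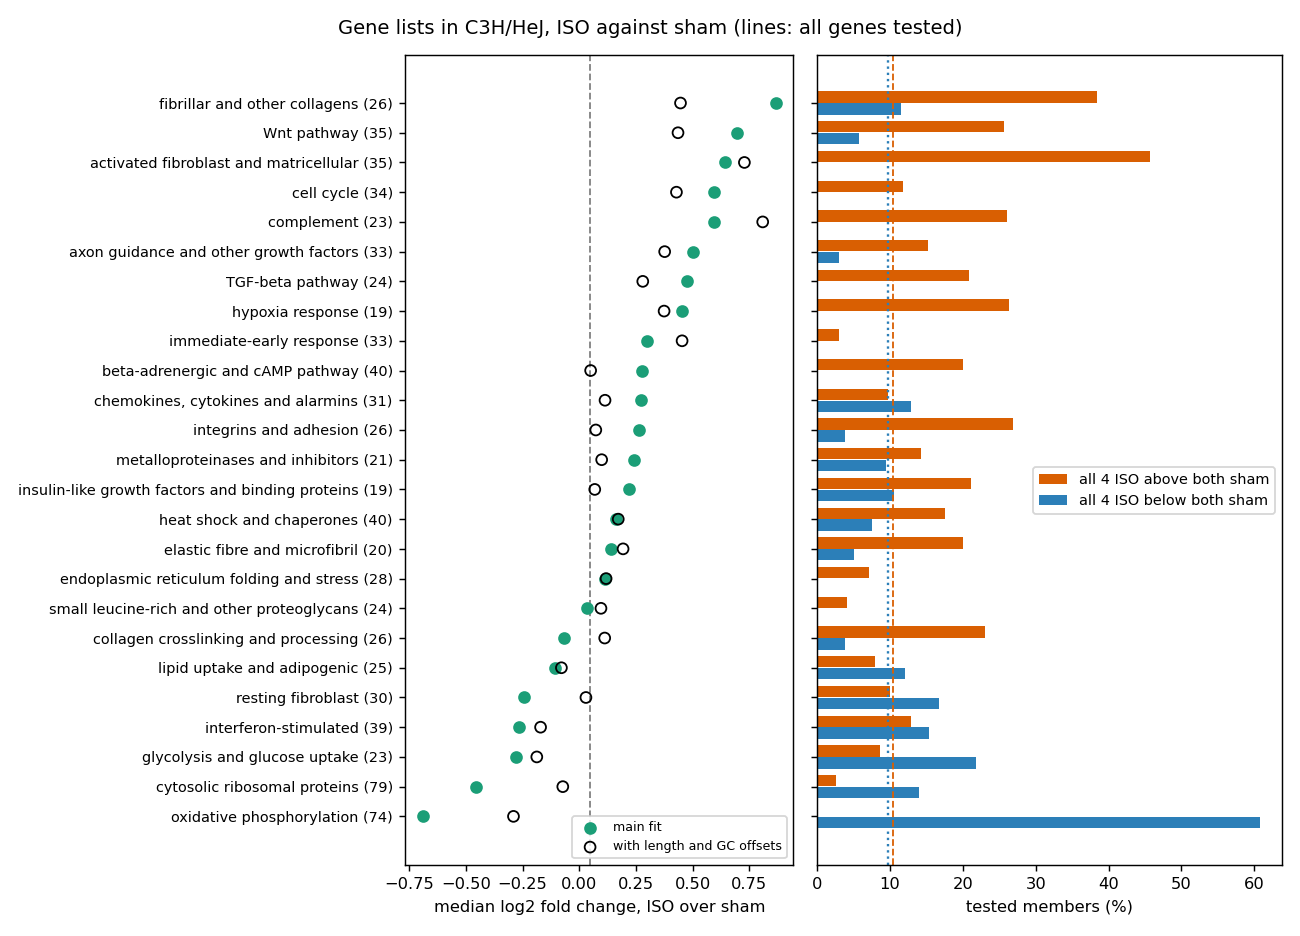
For 25 gene lists (members tested in brackets), left, the median log2 fold change of ISO over sham in C3H/HeJ, with and without length and GC offsets; right, the percentage of members with all 4 ISO libraries above or all 4 below both sham libraries. Dashed and dotted lines give all genes tested (10.4% above, 9.68% below); activated fibroblast genes stand at 45.7% above and oxidative phosphorylation genes at 60.8% below.

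Integrins and adhesion genes had 7 of 26 above and 1 below (Itga7), with a median of 0.27, with 0.28 at day 14, 0.32 at day 21 and 0.073 under the offsets. Its range was from 0.077 without ISO day 21 replicate 2 to 0.56 without sham replicate 2. Itgbl1, an integrin-beta-like secreted protein, had 87.6 to 186 CPM in ISO libraries and 63.03 and 46.6 CPM in sham. Itgav, the integrin alpha V subunit, had 75.98 and 69.2 CPM at ISO day 14 and 66.5 and 147 CPM at ISO day 21, against 38.7 and 42.3 CPM in sham, with day 21 replicate 2 apart from the other 3. Itgb1, the shared beta 1 subunit, had 617 to 1037 CPM in ISO libraries and 594 and 556 CPM in sham. Itga8, its partner in mesenchymal cells, had 21.7 to 43.3 CPM in ISO libraries and 15.1 and 14.7 CPM in sham. All ISO libraries were above sham for both subunits. The log2 fold changes of Itgav, Itgb1 and Itga8 were 1.1, 0.54 and 0.96, and the offsets brought them to 0.40, 0.22 and 0.38. Ddr2, a receptor for fibrillar collagen, had 237 to 353 CPM in ISO libraries and 183 and 129.6 CPM in sham, a log2 fold change of 0.89 ± 0.38, and 0.00 with the offsets. Axon guidance and other growth factor genes had 5 of 33 above and 1 below. Slit2, a guidance ligand, had 27.1 to 49.3 CPM in ISO libraries and 24.4 and 11.8 CPM in sham. Robo1, its receptor, had 17.7 to 38.3 CPM in ISO libraries and 8.80 and 10.6 CPM in sham. Ligand and receptor were both above sham in every ISO library, with log2 fold changes of 1.1 and 1.44, and of 0.15 and 0.68 with the offsets. Bmp4, a bone morphogenetic protein, had 19.1 to 42.02 CPM in ISO libraries and 11.8 and 17.5 CPM in sham. Hbegf, an EGF-family ligand, had 33.9 and 26.4 CPM at ISO day 14 and 19.2 and 25.7 CPM at ISO day 21, against 155 and 29.1 CPM in sham, where sham replicate 1 stood far above the other 5 libraries.

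The insulin-like growth factor list had 4 of 19 above and 2 below, and a median of 0.22, with 0.14 at day 14, 0.032 at day 21 and 0.068 under the offsets. It ran from -0.23 without ISO day 21 replicate 2 to 0.44 without sham replicate 2. Igfbp7, a secreted binding protein, had 1629 to 2237 CPM in ISO libraries and 939 and 1158 CPM in sham. Stc2, a stanniocalcin, had 55.7 to 82.2 CPM in ISO libraries and 17.4 and 43.7 CPM in sham. Both were above sham in every ISO library. Htra1, a secreted serine protease, had 274 to 438 CPM in ISO libraries and 454 and 583 CPM in sham. Igfbp4, another binding protein, had 2064 to 2963 CPM in ISO libraries and 3708 and 3106 CPM in sham. Both were lower in every ISO library than in sham. With the offsets Igfbp7 moved to 1.54 on the log2 scale, against 0.83 without, and Htra1 to -0.16, against -0.63 without. Igf2, a fetal growth factor, had no read in any ISO library and 1.54 CPM in sham replicate 2.

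ISO acts through beta-adrenergic receptors, and Adrb1, which encodes the beta 1 receptor, was near 0. Adrb1 had 0 to 1.07 CPM in the ISO libraries, against none and 2.23 CPM in the sham libraries. Levels this low gave no usable fold change. Downstream, 8 of 40 genes of the adrenergic and cyclic AMP list were above and 0 below, and the median log2 fold change was 0.28, with 0.12 at day 14, 0.29 at day 21 and 0.050 under the offsets. It ran from 0.039 without ISO day 21 replicate 2 to 0.53 without sham replicate 2. Akap12, an anchoring protein for protein kinase A, had 269.6 and 304 CPM at ISO day 14 and 299.6 and 418 CPM at ISO day 21, against 134 and 132 CPM in sham. Akap13, another anchoring protein, had 108 to 204 CPM in ISO libraries and 29.8 and 105 CPM in sham. Prkar2a, a regulatory subunit of that kinase, had 32.1 to 53.05 CPM in ISO libraries and 15.8 and 21.3 CPM in sham. Atf1, a transcription factor of the CREB family, had 5.38 to 12.1 CPM in ISO libraries and 0 and 0.742 CPM in sham. None of these passed. The log2 fold changes of Akap12, Akap13 and Prkar2a were 1.27, 1.34 and 1.22, and the offsets brought them to 0.79, 0.74 and 0.76.

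Heat shock and chaperone genes had 7 of 40 above and 3 below (Cryab, Dnajb5 and Hspb8), with a median of 0.16, with 0.33 at day 14, 0.0031 at day 21 and 0.17 under the offsets. Its range was from 0.015 without sham replicate 2 to 0.23 without ISO day 14 replicate 2. Beside Hsph1, Fkbp5, an Hsp90 co-chaperone induced by glucocorticoids, had 97.1 and 126 CPM at ISO day 14 and 74.9 and 34.3 CPM at ISO day 21, against 27.04 and 21.5 CPM in sham. Hsp90ab1, the constitutive Hsp90, had 1008 to 1490.2 CPM in ISO libraries and 943 and 799 CPM in sham. Hspd1, the mitochondrial chaperonin, had 19.5 to 32.2 CPM in ISO libraries and 11.9 and 7.82 CPM in sham. Hspa1b, a stress-induced Hsp70, had 12.9 to 31.3 CPM in ISO libraries and 2.36 and 12.1 CPM in sham, and has a near-identical copy, Hspa1a, so its counts are uncertain. St13, an Hsp70-interacting protein, had 124 to 187 CPM in ISO libraries and 127 and 61.7 CPM in sham, with an overlap at day 21 replicate 1.

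Promoters of the heat shock list are shown because Hsph1 led the list by p and Hspa1b is the stress-induced member. The capitals mark GAANNTTC, the inverted pair of the units that heat shock factor is known to bind, searched on both strands in RefSeq windows on GRCm38.p6. At least 1 window matched in 15 of the 32 genes of the list that had a promoter window. Over all genes, 7.86% of 32851 single windows matched. Some genes have more than 1 window, so these shares are in unlike units. The motif was chosen after the values were seen, and a match is a description of letters, not a binding site. Hsph1 lies at chr5:149636287-149636586, minus strand, with the match at position 41 after the start, and Hspa1b at chr17:34959189-34959488, minus strand, with the match first at -104.
Hsph1: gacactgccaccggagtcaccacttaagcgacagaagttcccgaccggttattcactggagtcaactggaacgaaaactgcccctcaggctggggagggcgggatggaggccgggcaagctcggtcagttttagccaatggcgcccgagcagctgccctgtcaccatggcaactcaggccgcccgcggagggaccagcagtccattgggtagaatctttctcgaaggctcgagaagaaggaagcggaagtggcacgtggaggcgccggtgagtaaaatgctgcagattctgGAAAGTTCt
Hspa1b: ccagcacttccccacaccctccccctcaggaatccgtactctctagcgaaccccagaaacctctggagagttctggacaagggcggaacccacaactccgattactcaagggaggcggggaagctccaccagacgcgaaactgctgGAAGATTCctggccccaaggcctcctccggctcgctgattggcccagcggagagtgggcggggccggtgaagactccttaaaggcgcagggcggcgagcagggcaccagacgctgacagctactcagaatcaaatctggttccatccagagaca

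Endoplasmic reticulum folding genes had 2 of 28 above and 0 below, and a median of 0.11, with 0.49 at day 14, -0.23 at day 21 and 0.12 under the offsets, so the days lay on opposite sides of 0. It ran from -0.12 without ISO day 14 replicate 1 to 0.25 without sham replicate 1. Sel1l, a component of the degradation complex of that compartment, had 133 to 165 CPM in ISO libraries and 68.8 and 106 CPM in sham, a log2 fold change of 0.75, and 0.10 with the offsets. Dnajc3, Herpud1 and Selenos overlapped, with log2 fold changes of 1.43, 0.64 and 0.63. Immediate-early genes had 1 of 33 above and 0 below, and a median of 0.30, with 0.18 at day 14, 0.22 at day 21 and 0.45 under the offsets. It ran from -0.048 without sham replicate 1 to 0.57 without sham replicate 2. Egr2, a zinc finger transcription factor, had 106 to 204 CPM in ISO libraries and 62.01 and 115 CPM in sham. Klf4, another, had 211 to 530.1 CPM in ISO libraries and 233 and 156 CPM in sham. Zfp36l1, which promotes decay of AU-rich mRNAs, had 142 to 290.4 CPM in ISO libraries and 194 and 85.5 CPM in sham. All 3 overlapped between the groups, and Zfp36l1 was at 0.62 on the log2 scale, or 0.41 with the offsets. Klf2, a shear-responsive transcription factor, had a log2 fold change of -0.49 ± 0.31 that was 0.08 with the offsets.

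Among immune genes, complement had 6 of 23 above and 0 below. C7, a component of the membrane attack complex, had 23.4 to 79.1 CPM in ISO libraries and 3.22 and 18.6 CPM in sham. C1ra, a protease of the first component, had 304 to 373 CPM in ISO libraries and 234 and 279.7 CPM in sham. C1s1, its partner protease, had 411 to 447 CPM in ISO libraries and 263 and 389 CPM in sham. Mouse carries close copies of both, so their counts are uncertain, and the log2 fold change of C1s1 was 0.39, or 0.22 with the offsets. C1qa and C1qb, which macrophages make, reached 32.1 CPM and 21.0 CPM in ISO day 21 replicate 1. The summed macrophage markers, of which both are members, were also highest in that library. Cfi, complement factor I, was at 2.46 to 7.67 CPM in the ISO libraries, against 0.0786 and 0.628 CPM in sham. Interferon-stimulated genes had 5 of 39 above and 6 below, and a median of -0.26, with -0.037 at day 14, -0.45 at day 21 and -0.17 under the offsets. It ran from -0.45 without sham replicate 2 to 0.27 without sham replicate 1, and was also positive under voom. Irf7, the interferon-induced transcription factor, had 31.97 to 54.1 CPM in ISO libraries and 81.8 and 73.1 CPM in sham. Tap1, the peptide transporter for antigen presentation, had 25.4 to 39.6 CPM in ISO libraries and 60.1 and 58.1 CPM in sham. Ifi35, another interferon-induced gene, had 44.3 to 78.95 CPM in ISO libraries and 131 and 82.1 CPM in sham. These 3 were lower in every ISO library. Ddx58, which encodes the RNA sensor RIG-I, had 35.98 to 50.8 CPM in ISO libraries and 11.1 and 23.99 CPM in sham. Gbp2, a guanylate-binding protein, had 80.9 to 97.9 CPM in ISO libraries and 76.9 and 62.3 CPM in sham. Both were above sham in every ISO library. Rtp4 overlapped, at 13.4 to 33.3 CPM in ISO libraries and 90.9 and 29.9 CPM in sham. Psmb9, an immunoproteasome subunit, was lower in every ISO library, at 9.96 to 13.4 CPM in ISO libraries and 13.8 and 20.6 CPM in sham. With the offsets Ifi35 and Psmb9 were at -0.26 and -0.32 on the log2 scale, against -0.77 and -0.57 without.

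Chemokines and cytokines had 3 of 31 above (Cxcl5, Il1r1 and Il33) and 4 below (Ccl2, Cxcl16, Tnf and Tslp), shares close to those of all genes. Ccl2, which attracts monocytes, had 68.1 and 30.01 CPM at ISO day 14 and 23.9 and 56.5 CPM at ISO day 21, against 107 and 88.98 CPM in sham. Cxcl16 had 56.04 to 83.3 CPM in ISO libraries and 156 and 119.6 CPM in sham. Ccl11, eotaxin, overlapped at 9.20 to 25.5 CPM in ISO libraries and 67.3 and 24.3 CPM in sham, a log2 fold change of -1.34, and -0.85 with the offsets.

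Oxidative phosphorylation genes stood lowest of the 25 lists described by median. Of 74 members tested, 45 were below both sham libraries in every ISO library (60.8%) and 0 above, and none passed. In the shortest quintile of all genes 16.5% were below. A negative log2 fold change was seen in 67 of the 74, against 7267 of all 15762 genes. The median was -0.69 pooled, -0.55 at day 14 and -0.87 at day 21, -0.47 without sham replicate 1 and -0.92 without sham replicate 2. In C57BL/6 it was 0.10 and in KK/HlJ -0.49. The difference between strains was called for none of all 15762 genes, so the lack of a call in this list does not show that the strains were alike. These are short transcripts, with a median length of 1093.5 nt, and the offsets left a median of -0.29 in C3H/HeJ, against 0.06 over all genes.

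Ndufs4, a subunit of complex I, had 73.3 and 42.3 CPM at ISO day 14 and 40.5 and 47.7 CPM at ISO day 21, against 132 and 76.8 CPM in sham. Ndufb6, another complex I subunit, had 23.6 to 59.1 CPM in ISO libraries and 122 and 60.1 CPM in sham. Ndufc1 had 25.9 to 43.1 CPM in ISO libraries and 114 and 52.03 CPM in sham. Sdhb, the iron-sulfur subunit of complex II, had 174 and 134 CPM at ISO day 14 and 145 and 109.8 CPM at ISO day 21, against 306 and 215 CPM in sham, and its log2 fold change of -0.90 ± 0.29 was -0.39 with the offsets. All 4 genes were highest in sham replicate 1. Sham replicate 2 also lay above every ISO library in each of them, though narrowly in Ndufs4 and Ndufb6. Ndufb6 was at -1.16 on the log2 scale, and -0.71 with the offsets.

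Cytosolic ribosomal protein genes had 2 of 79 above (2.53%) and 11 below (13.9%). Their median transcript length was 1059 nt, and both shares were near those of the shortest quintile (3.20% and 16.5%). The list's median log2 fold change was -0.46, with -0.27 at day 14, -0.67 at day 21 and -0.073 under the offsets. As single libraries were left out it ran from -0.65 without sham replicate 2 to -0.23 without sham replicate 1. The median was 0.20 in C57BL/6 and -0.59 in KK/HlJ. Rps15 had 441 to 728 CPM in ISO libraries and 1682 and 777 CPM in sham. Rpl41 had 27.3 to 50.1 CPM in ISO libraries and 111 and 59.2 CPM in sham. Rplp2 had 43.6 to 133 CPM in ISO libraries and 219.6 and 119.8 CPM in sham. As for Rpl35a, it had 124 to 175 CPM in ISO libraries and 381 and 173 CPM in sham. Each was higher in sham replicate 1 than in sham replicate 2, and Rplp2 and Rpl35a overlapped between the groups. The log2 fold changes of Rps15, Rpl41 and Rplp2 were -1.12, -1.22 and -1.29, and the offsets brought them to -0.09, -0.38 and -0.58. Many such genes have processed copies, so their counts are uncertain. Glycolysis genes had 2 of 23 above and 5 below. Slc2a4, the insulin-responsive glucose transporter, had 7.0 to 21.8 CPM in ISO libraries and 31.9 and 29.9 CPM in sham. Slc2a1, the basal glucose transporter, had 46.8 and 49.9 CPM at ISO day 14 and 24.4 and 23.03 CPM at ISO day 21, against 15.2 and 18.7 CPM in sham, higher at day 14 than at day 21. Slc2a1 was above sham and Slc2a4 below it in every ISO library. Pkm, pyruvate kinase of muscle and fibroblasts, had 275 to 357 CPM in ISO libraries and 469 and 439 CPM in sham. Ldhb, lactate dehydrogenase B, had 25.99 to 33.3 CPM in ISO libraries and 40.7 and 50.2 CPM in sham. The log2 fold changes of Pkm and Ldhb were -0.54 and -0.66, and -0.11 and -0.20 with the offsets.

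All 19 hypoxia genes tested had a positive log2 fold change, as did 8206 of all 15762 genes. Of the 19, 5 were above (Egln3, Hif1a, Mxi1, Ndrg1 and Slc2a1). The median was 0.45, with 0.51 at day 14, 0.43 at day 21 and 0.37 under the offsets. It ran from 0.39 without ISO day 21 replicate 1 to 0.66 without sham replicate 2. None passed. Mxi1, an antagonist of Myc, had 48.3 to 93.02 CPM in ISO libraries and 21.9 and 34.7 CPM in sham, a log2 fold change of 1.24, and 0.74 with the offsets. Egln3, an oxygen-sensing hydroxylase, had 9.04 to 21.3 CPM in ISO libraries and 0.0786 and 8.17 CPM in sham. Epas1, which encodes HIF-2 alpha, overlapped at 10.7 to 82.5 CPM in ISO libraries and 8.96 and 28.6 CPM in sham. The medians of the list were -0.10 in C57BL/6 and -0.02 in KK/HlJ. Lipid genes had 2 of 25 above and 3 below. Scd1, a fatty acid desaturase, had 208 to 265 CPM in ISO libraries and 89.9 and 176 CPM in sham. Every ISO library was above both sham libraries. Fasn, fatty acid synthase, had 142 to 164 CPM in ISO libraries and 185 and 247 CPM in sham. Sqle, squalene epoxidase, had 1.92 to 11.7 CPM in ISO libraries and 33.95 and 11.4 CPM in sham. With the offsets Scd1 was at 0.43 and Fasn at -0.91 on the log2 scale, against 0.88 and -0.53 without.

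Cell cycle genes had 4 of 34 above and 0 below, and a median of 0.60, with 0.67 at day 14, 0.40 at day 21 and 0.43 under the offsets. It ran from 0.31 without ISO day 21 replicate 2 to 1.21 without sham replicate 2, and 6 members had at most 3 reads in every ISO library or in every sham library. Mki67, the proliferation marker, had reads in 1 library of each day, at 2.24 and 0.695 CPM, and none in sham. Ccnd1, cyclin D1, had 51.9 to 76.8 CPM in ISO libraries and 17.9 and 33.1 CPM in sham. Mcm4, a replication helicase subunit, had 18.9 to 34.4 CPM in ISO libraries and 12.7 and 10.9 CPM in sham. Both were above sham in every ISO library. Ccnd2, cyclin D2, overlapped, and its log2 fold change of 0.84 ± 0.41 was -0.02 with the offsets. Cdkn2b, a cyclin-dependent kinase inhibitor, had 4.32 to 8.75 CPM in ISO libraries and 0 and 3.83 CPM in sham. Zyx, the focal adhesion protein zyxin, had 236 to 429 CPM in ISO libraries and 518 and 577 CPM in sham, lower in every ISO library, and its log2 fold change of -0.64 was -0.34 with the offsets. Myh10, non-muscle myosin IIB, had 118 and 177 CPM at ISO day 14 and 156 and 211 CPM at ISO day 21, against 64.1 and 54.5 CPM in sham, and its log2 fold change of 1.47 ± 0.36 was 0.75 with the offsets. Acta2, smooth muscle actin and the classical myofibroblast marker, had 640.5 and 429.5 CPM at ISO day 14 and 421 and 373 CPM at ISO day 21, against 623 and 814 CPM in sham. Its ISO and sham libraries overlapped at day 14 replicate 1, and its log2 fold change was -0.64 ± 0.50, below 0. Cnn2, calponin 2, overlapped as well, at 77.9 to 195 CPM in ISO libraries and 284 and 139 CPM in sham.

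Resting fibroblast genes had 3 of 30 above and 5 below, and a median of -0.24, with -0.10 at day 14, -0.20 at day 21 and 0.029 under the offsets. It ran from -0.28 without ISO day 14 replicate 1 to -0.045 without sham replicate 2. Vim, the mesenchymal intermediate filament, had 4345 to 5374 CPM in ISO libraries and 2446 and 4054 CPM in sham. Tbx20, a cardiac transcription factor, had 119 to 229.9 CPM in ISO libraries and 61.9 and 73.8 CPM in sham. Hsd11b1, which regenerates active glucocorticoid, had 57.5 and 72.9 CPM at ISO day 14 and 73.2 and 88.4 CPM at ISO day 21, against 196 and 118 CPM in sham. Penk, proenkephalin, had 13.9 to 43.1 CPM in ISO libraries and 70.3 and 66.6 CPM in sham, both lower in every ISO library. The offsets brought Tbx20 to 0.44 and Penk to -0.83 on the log2 scale, against 1.22 and -1.28 without.

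Markers of other cell types did not all move the same way. The summed level of the 22 endothelial markers ran over 731 to 2678 CPM in ISO libraries and 952 to 1136 CPM in sham libraries, and the highest was ISO day 21 replicate 1. That library also held the highest sum of cardiomyocyte markers (163 to 667 CPM in ISO, 216 to 218 CPM in sham). The 20 macrophage markers summed to 53.2 and 41.0 CPM at ISO day 14 and 254 and 19.0 CPM at ISO day 21, against 14.9 and 19.2 CPM in sham. All but ISO day 21 replicate 2 of the ISO libraries were above both sham libraries, and day 21 replicate 1 was the highest. All 17 macrophage markers tested had a positive log2 fold change, as did 8206 of all 15762 genes. Of the 17, 9 had at most 3 reads in every ISO library or in every sham library. Above sham in every ISO library were 4 of the 17. Itgam and Ccr2, 2 of the 20 macrophage markers, had no read in any C3H/HeJ library. Pericyte and smooth muscle markers summed to 2373 to 2961 CPM in ISO libraries and 2996 to 4555 CPM in sham libraries. Sham replicate 1 (2996 CPM) was close to ISO day 14 replicate 2 (2961 CPM). The list's median log2 fold change was -0.52, with -0.75 without sham replicate 1 and -0.08 without sham replicate 2. Of these 20 markers, 5 were below sham in every ISO library (Cox4i2, Des, Higd1b, Ndufa4l2 and Vtn) and 1 above (Myh11). Des, desmin, had 42.3 to 66.9 CPM in ISO libraries and 86.4 and 93.7 CPM in sham, a log2 fold change of -0.64, and -0.35 with the offsets. The part of pericyte content in the Vtn and Cox4i2 values was not tested.

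Of the 16 Schwann cell and glia markers, 8 were below sham in every ISO library and 2 above (Kcna1 and Pmp22). The median log2 fold change was -1.18, with -0.74 under the offsets. Gfra3, a GDNF-family receptor of Schwann cells, had 18.9 and 22.1 CPM at ISO day 14 and 10.8 and 22.5 CPM at ISO day 21, against 44.9 and 59.6 CPM in sham, a log2 fold change of -1.50, and -0.94 with the offsets. Cnp, a myelin enzyme, had 46.7 to 65.6 CPM in ISO libraries and 95.2 and 106 CPM in sham. The summed level, in CPM of total counts without TMM scaling, ran the other way. It was 930 to 1159 CPM in ISO libraries and 850 to 906 CPM in sham libraries. A sum follows its most abundant members, whereas a median counts each member alike. Which members carried the sum was not tested. The TMM factor was 0.904 in sham replicate 2 (906 CPM) and 0.964 in ISO day 21 replicate 1 (930 CPM). The gap between these 2 libraries is smaller than that between their factors, so the ranges are not read as apart.

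**Figure D4:**
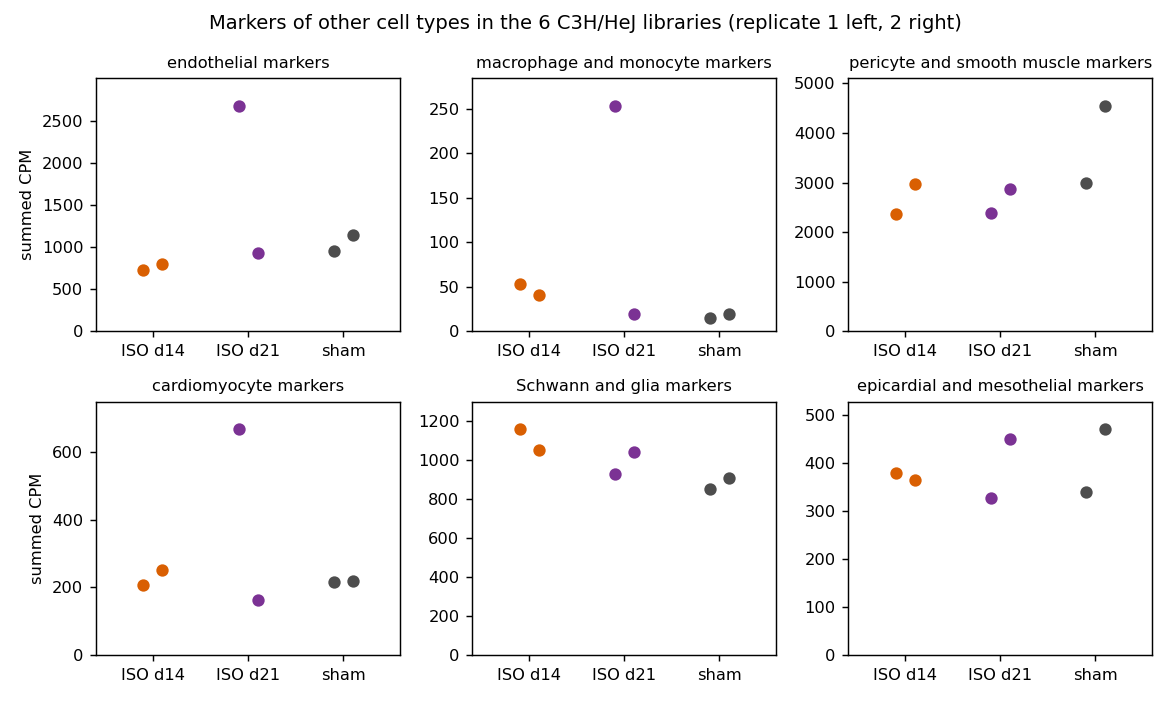
Summed CPM of total counts (without TMM scaling) of 6 sets of cell type markers in the 6 C3H/HeJ libraries. ISO day 14, ISO day 21 and sham run from left to right, and each dot is 1 library. ISO day 21 replicate 1 stands apart in endothelial, macrophage and cardiomyocyte markers, at 2678, 254 and 667 CPM. Pericyte and smooth muscle markers span 2373 to 2961 CPM in ISO and are at 2996 and 4555 CPM in sham.

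Taken day by day against the same sham libraries, 2 genes rose at day 14 and none fell (0.0127% called higher, 0% lower). DESeq2 called 33 at day 14, and edgeR had 352 higher and 132 lower at an unadjusted p under 0.05. Those counts were lower than at day 21, given below. Postn had a log2 fold change of 2.85 ± 0.41 at day 14 (SE; edgeR adjusted p = 0.00915), and Serpina3n of 2.35 ± 0.38 (SE; edgeR adjusted p = 0.0279). At day 21 no gene passed (0% either way). At an unadjusted p under 0.05 edgeR had 524 higher and 387 lower, and DESeq2 called 92. There Postn stood at 2.26 ± 0.40 (SE; edgeR adjusted p = 0.186) and Serpina3n at 1.51 ± 0.37 (SE; edgeR adjusted p = 0.604). Day 14 called 0 to 111 genes and day 21 called 0 to 182 as single libraries were left out, and each highest count was without sham replicate 2.

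In a direct test of the ISO libraries of day 21 against those of day 14, no gene passed (0% called by edgeR, 66 genes at an unadjusted p under 0.05, 0 by DESeq2). By p, the genes that led on the day 21 side were Fabp4, a fatty acid binding protein of capillary endothelium, Pecam1, an endothelial adhesion molecule, and Cd36, a fatty acid transporter. Fabp4 had 481 and 55.4 CPM at day 21, against 25.4 and 32.2 CPM at day 14. Pecam1 had 169 and 23.7 CPM at day 21, against 13.3 and 26.0 CPM at day 14. Cd36 had 203 and 37.5 CPM at day 21, against 6.88 and 18.03 CPM at day 14. In all 3 the level was carried by day 21 replicate 1, the library with the highest sum of endothelial markers. Fabp4 and Pecam1 are members of that sum, and Cd36 is not. The part of endothelial content was not tested. Tnfaip6, a hyaluronan-binding protein of inflammation, had 133 and 226 CPM at day 21, against 643 and 299 CPM at day 14. Angptl4, an inhibitor of lipoprotein lipase, and Sdf2l1, a chaperone of the endoplasmic reticulum, had log2 differences of -2.76 and -2.13 between the days.

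The final comparison set the C3H/HeJ response against the mean of the C57BL/6 and KK/HlJ responses to ISO, which use their own sham libraries. No gene passed (0% called by edgeR in either direction, 348 higher and 201 lower at an unadjusted p under 0.05). DESeq2 called 10: Ahcy, Atxn7, Chd8, Fchsd2, Gm29216, Gnb5, Ifi207, Jmy, Maml2 and Timp3. Without sham replicate 2 of C3H/HeJ the edgeR count was 95.

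Timp3, Fchsd2 and Chd8 had the lowest p on the higher side among genes with a mean of at least 5 CPM in C3H/HeJ ISO or sham. Timp3 had a log2 fold change of 1.59 ± 0.30 in C3H/HeJ, against 0.07 ± 0.28 in C57BL/6 and 0.14 ± 0.28 in KK/HlJ (SE), and the difference was 1.49 ± 0.35 (SE; edgeR unadjusted p = 0.000328, adjusted p = 0.9999). Fchsd2 had 3.01 ± 0.66 in C3H/HeJ, against -0.23 ± 0.55 in C57BL/6 and 0.32 ± 0.57 in KK/HlJ. Chd8, a chromatin remodeller, had 1.68 ± 0.43 in C3H/HeJ, against -0.20 ± 0.39 in C57BL/6 and -0.46 ± 0.39 in KK/HlJ. Chd8 levels were 62.5 and 49.9 CPM at ISO day 14 and 54.1 and 58.6 CPM at ISO day 21, against 16.6 and 18.4 CPM in sham, and with the offsets its C3H/HeJ log2 fold change was 0.88. Postn stood at 2.55 ± 0.38 in C3H/HeJ, 1.74 ± 0.36 in C57BL/6 and 2.21 ± 0.37 in KK/HlJ, and the difference of 0.58 ± 0.41 did not pass (edgeR adjusted p = 0.9999). Hsph1 was at 2.85 ± 0.52 in C3H/HeJ, -0.25 ± 0.44 in C57BL/6 and 1.48 ± 0.48 in KK/HlJ, and its difference was 2.24 ± 0.58 (edgeR adjusted p = 0.9999). Serpina3n was at 1.93 ± 0.35 in C3H/HeJ, 0.83 ± 0.33 in C57BL/6 and 0.43 ± 0.32 in KK/HlJ, a difference of 1.3 ± 0.40.

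On the lower side stood Fez1, Eif5a2 and H2-T23. Fez1, a kinesin adaptor, had -0.72 ± 0.42 in C3H/HeJ, against 0.98 ± 0.44 in C57BL/6 and 1.06 ± 0.45 in KK/HlJ, and its C3H/HeJ value was -0.42 with the offsets. H2-T23, a non-classical MHC class I gene, had 8.34 and 9.30 CPM at ISO day 14 and 13.7 and 9.68 CPM at ISO day 21, against 92.4 and 10.6 CPM in sham, so that its C3H/HeJ value rested on sham replicate 1. It became -0.06 without that library. MHC genes differ between strains and have close copies, so these counts are uncertain. Eif5a2, a translation factor, had 8.75 to 12.6 CPM in ISO libraries and 9.75 and 5.48 CPM in sham in C3H/HeJ, and no fold is given for KK/HlJ, whose sham libraries had no read of it.

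**Figure D5:**
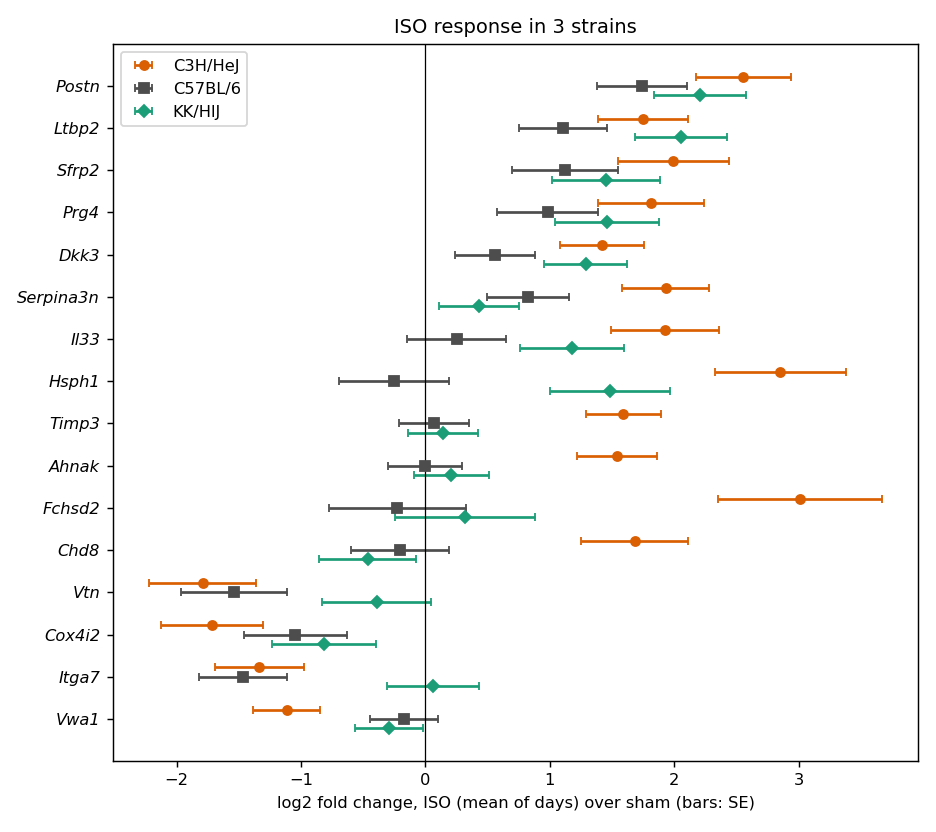
Log2 fold change of ISO (mean of days) over sham with its SE for 16 genes in C3H/HeJ, C57BL/6 and KK/HlJ. Timp3 is at 1.59 in C3H/HeJ against 0.07 in C57BL/6 and 0.14 in KK/HlJ, while Postn is at 2.55, 1.74 and 2.21; no difference between strains passed.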

How the data were processed

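RNA of Thy1+ heart cells was sequenced as single-end reads of 50 nt from mRNA libraries described as stranded, per the labels' protocols. The submitters' processing notes name FastQC, STAR 2.5.3a, edgeR and the mm10 genome. The sources used here do not give the read counter, its strand setting or the annotation release, so reads of a gene and of its antisense partner cannot be told apart. The authors deposited raw read counts per Ensembl gene, with no normalization. Reads of C3H/HeJ cells were mapped to a genome derived from C57BL/6, so strain variants can lower counts.

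GENCODE M21 gave symbols, transcript lengths and mm10 coordinates, and RefSeq the promoters. All 18 libraries entered 1 edgeR 4.0.16 quasi-likelihood fit (R 4.3.3, TMM, robust) with 9 group terms and 9 residual degrees of freedom. Filtering by edgeR's defaults left 15762 genes. The pooled response is the mean of the 2 day means minus sham. SE was derived from the fold change and its F statistic. The call threshold was a Benjamini-Hochberg adjusted p under 0.05. A gene with at most 3 counts per library was treated as at the floor, which covers counting error only.

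Members and lists were chosen with earlier results of these data known. Of 1008 list entries, 1000 matched the annotation. Genes named had a mean of at least 5 CPM on the higher side, no predicted, clone or RIKEN name, and all 4 ISO libraries on 1 side of both sham libraries: those that passed, filled up to 10 in each direction by p. Added were up to 4 members of each list by p, the 3 lowest p in each direction for the day and strain differences, and Postn, Ltbp2, Col1a1, Col3a1, Acta2, Pdgfra, Tcf21, Thy1, Mki67 and Adrb1. A few genes and 1 gene list are not reported here. Other genes named with values, such as Fn1, Cilp, Sparc, Sfrp4, Hspd1, Timp2, Gbp2, Gfra3 and Lyz2, and those listed by name, were chosen after their values were seen. Alternatives were DESeq2 1.42.0, RLE scaling, no filter, a mean of at least 5 CPM, the replicate number as a block, only the C3H/HeJ libraries, limma 3.58.1 voom with quality weights, offsets for length and GC content, the ISO libraries as 1 group, and each library left out. Fits without a library, fits of only the C3H/HeJ libraries and the fit of 1 ISO group kept the genes of the main filter, a choice made after a first run. The edgeR fit was tested on simulated counts with known fold changes.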

Additional observations from a re-analysis of the deposited data

Results flagged for a closer look

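Of the named genes tested, 10 of 151 had 1 ISO library of the 4 far from the other 3, by the gap to its nearest neighbour over the whole range (above Dixon's critical value for 4 samples). Chance flags about 1 in 20 groups. ISO day 21 replicate 1 was the highest in Fabp4 (481 CPM), Pecam1 (169 CPM), Cd36 (203 CPM), Lyz2, a lysozyme of macrophages (107 CPM), and C1qb (21.0 CPM). The summed markers of endothelial cells and macrophages were also highest in that library. Fabp4 and Pecam1 are themselves members of the endothelial sum, and Lyz2 and C1qb of the macrophage sum, so these are not separate observations. Cd36 is in neither sum. The part of those cells was not tested. ISO day 14 replicate 1 was the highest in Ccn2 (1339.6 CPM), Angptl4 (85.2 CPM) and Ndufc1 (43.1 CPM), and the lowest in Akap13 (108 CPM). ISO day 21 replicate 2 was the highest in Itgav (147 CPM).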

How the results depend on the processing

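Counts of called genes depended on the processing, and so did the sizes of fold changes with the offsets. In the pooled comparison edgeR called 1 gene, against 109 by DESeq2, 51 with no filter on low counts, 0 with a mean of at least 5 CPM, 2 in only the C3H/HeJ libraries (Hsph1 and Postn), and 2 with length and GC offsets (Ccn5 and Serpina3n). At day 14 there were 2, against 33 by DESeq2, 23 with no filter, 0 with at least 5 CPM and 1 under voom. At day 21 there were 0, against 92 by DESeq2 and 26 with no filter. For day 21 against day 14 there were 0, and 8 with no filter. The strain difference had 0, against 10 by DESeq2 and 2 with no filter. As single libraries were left out, the counts ran from 0 to 198 pooled, 0 to 111 at day 14, 0 to 182 at day 21, 0 to 1 between the days (Fabp4, without day 21 replicate 2) and 0 to 95 between strains. The highest counts of the ISO against sham and strain comparisons came without sham replicate 2. The cause was not tested. The replicate numbers pair no samples in the labels, and same-numbered deviations correlated at 0.143, -0.102 and -0.0934. With the replicate block the pooled count was 2 (Postn and Serpina3n). Of 2261 log2 values of named genes, 2168 kept their direction and side of the threshold. Nearly all of these genes were uncalled in the main fit, so this took only an unchanged sign and no call. It is no measure of size, which the offsets moved in many genes, as given above. The sign turned with the offsets in Klf2 (0.084), Ccnd2 (-0.017), Pdgfra (-0.086), Tcf21 (0.019) and Thy1 (0.079). It turned as single libraries were left out in Tll1 (-8.999 to 2.56), Hspg2 (-0.99 to 0.20), Gpc4 (-0.029 to 2.37), C1qa (-0.94 to 10.29), Tcf21 (-0.28 to 0.052) and Adrb1 (-4.06 to 4.95). Tll1, Adrb1 and C1qa rest on few reads, so these values are no measure of size.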
